A study of Drosophila melanogaster with 4 samples.

Results

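The regions described here are the broad CP190 clusters of whole Drosophila melanogaster embryos. They are the 509 stretches of called enrichment on the 5 large arms (X, 2L, 2R, 3L and 3R) that were chosen by their length, at least 3500 bp, in the authors' combined list. That list held 7701 clusters on these arms and 7960 in all, so 6.61% of the arm clusters met the minimum, and the 7192 shorter ones serve for comparison. Since the members were selected on cluster length in the combined list, their length, score and replicate support are descriptions, and no test was run on them. Just inside the minimum lay a cluster of 3500 bp on X and clusters of 3501 bp on 2L and 2R, and just outside it lay clusters of 3498 bp on 3R, 3495 bp on 2R and 3491 bp on 3L.

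CP190 was mapped by chromatin immunoprecipitation and sequencing (ChIP-seq) in wild-type embryos of the strain Oregon-R (Oregon-R-modENCODE), staged 14 to 16 h, although the collection step states only that embryos were no older than 16 h. The series has 2 CP190 ChIP samples, made with the antibody named CP190-HB, and 2 input samples of the same strain, genotype and stage, all fixed with 1.8% formaldehyde. Per the labels, ChIP replicate 1 was paired with input 2 and ChIP replicate 2 with input 1. Whole embryos mix many tissues, so neighbouring sites bound in the same cells and in different cells cannot be told apart. Separate embryo collections for the ChIP samples are not stated, so the spread between them may be technical.

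CP190 carries zinc fingers and a BTB domain, through which such proteins pair with one another. It binds chromatin mainly by way of DNA-binding insulator proteins such as Su(Hw), CTCF and BEAF-32, and it is needed for the enhancer-blocking activity of several insulators. Its sites are known to gather at gene promoters and at borders between chromosomal domains.

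Broad clusters formed the upper tail of a continuous length distribution. They ran from 3500 to 9760 bp with a median of 4108 bp, against 1001 to 3498 bp and a median of 1964 bp in shorter clusters. The middle 50% of them lay between 3746 and 4791 bp. Only 99 reached 5000 bp and 15 reached 7000 bp. Together they covered 2.24 Mb, which was 14.1% of all clustered sequence on these arms and 1.89% of the arms, while shorter clusters covered 13.7 Mb.

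The deposited score of each cluster has no stated unit and is treated here as log2 enrichment. It serves only to order and describe clusters of the same list. It was higher in broad than in shorter clusters. Its median was 0.73 in broad clusters (quartiles 0.56 and 0.96) and 0.40 in shorter ones (0.33 and 0.58). Above the median score of the arm list lay 466 broad clusters (91.6%, exact 95% interval 88.8 to 93.8%), against 47.1% of the shorter ones. The score and the length come from the same call, so this is a property of the list and not an independent result. All intervals of shares are Clopper-Pearson intervals and cover counting error over clusters only.

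Within the broad clusters, added length went with little added score. Spearman's rho between length and score was 0.10 over the 509 broad clusters and 0.56 over the 7192 shorter ones, both given as descriptions, with clusters that share libraries. The median log2 score was 0.37 for clusters under 1500 bp, 0.31 between 1500 and 1999 bp and 0.57 between 2000 and 2499 bp. It was 0.68 between 3000 and 3499 bp, just below the minimum, and 0.73 between 3500 and 3999 bp, just above it. The 15 clusters of 7000 bp and more had a median of 0.91.

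**Figure D1:**
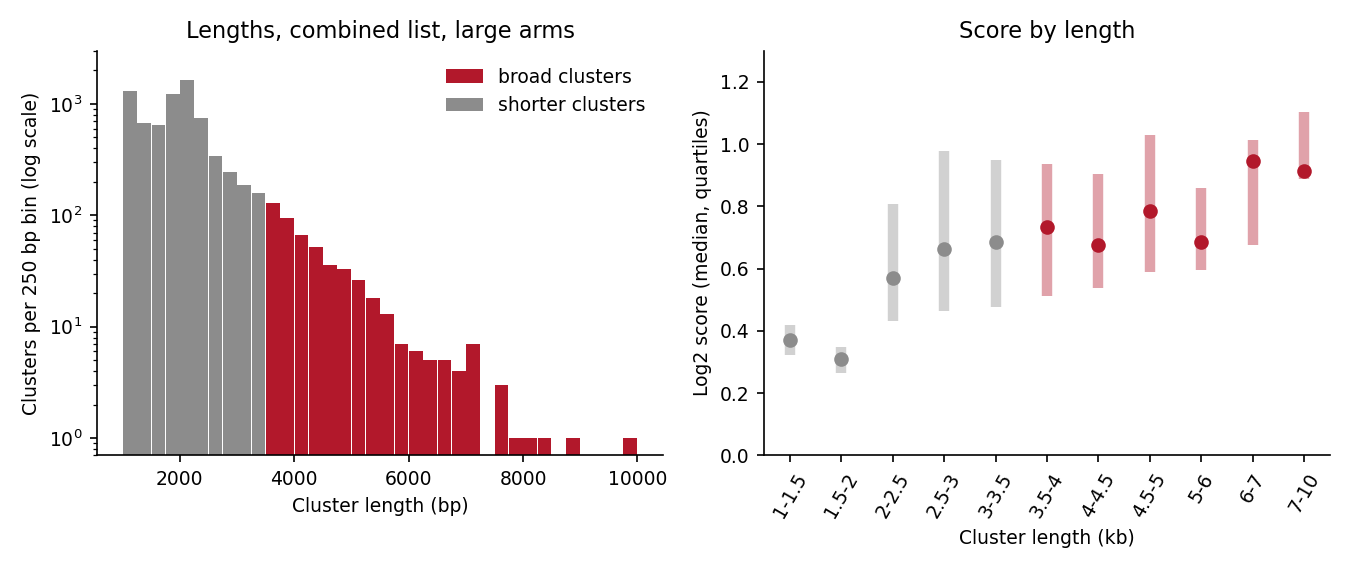
Left, number of combined-list clusters on the large arms per 250 bp of length (log scale), broad clusters in red and shorter ones in grey. Right, log2 score by length class, with the median as a point and the quartiles as a bar; the median is 0.31 at 1500 to 1999 bp and lies between 0.68 and 0.95 in the classes of broad clusters.

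Broad clusters were absent from the very first ranks by score but not from the high scores. Of the 10 highest-scoring arm clusters 0 were broad, beside 6.61% of all arm clusters. With so few clusters, 0 does not set these ranks apart from that share. Of the first 100 arm clusters 13 were broad, and of the first 500, 74. The top 10% of scores held 24.2% of broad and 9.00% of shorter clusters. The highest-scoring broad cluster ranked 25 of 7701. It lay on 2R at 11224632 to 11229137 (4506 bp) and had a log2 score of 2.17 in the combined list, with 2.34 in replicate 1 and 2.50 in replicate 2. Both replicate clusters were shorter than the minimum, at 3075 and 3074 bp, and covered 68.2% of it each, so the call was longer in the combined list than in either replicate. The next 3 were the 2L cluster at 7532987 to 7536556 (2.07), the 2R cluster at 21076016 to 21079565 (2.07) and the 3L cluster at 17587501 to 17591608 (2.03). Each of these was a lone cluster in both replicates, with log2 scores of 1.99 to 2.00 in replicate 1 and 2.14 to 2.24 in replicate 2.

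The fifth was made of a strong and a weaker stretch side by side. It lay on 3R at 794124 to 800242 (6119 bp) with a combined log2 score of 2.01. Replicate 1 had a cluster of 3527 bp with 2.28 and another of 2202 bp with 1.00, set 80 bp apart. Replicate 2 placed the same 2 stretches, of 3838 bp with 2.60 and 2207 bp with 0.99. The broad call therefore spans stretches that differ in score by over 1 log2 unit in both samples.

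Nearly all broad clusters were found in both replicates. At least 1 bp was shared with a cluster of both replicate lists by 488 of 509 (95.9%, exact 95% interval 93.8 to 97.4%), against 3160 of 7192 shorter clusters (43.9%, 42.8 to 45.1%) and 47.4% of all arm clusters. A longer stretch meets another list more easily, and the combined list rests on the same ChIP samples, so this share is not an independent check. The low share among shorter clusters came from those under 2000 bp, since 86.5% of clusters from 2000 to 2499 bp and 84.4% of those from 2500 to 2999 bp were found in both. Under 1500 bp the share was 0%. The combined list began at 1001 bp, while neither replicate list held a cluster under 1301 bp, so the lists differ in the lengths they can hold. How much of the contrast goes with this was not tested. Support was 88.2% in the 346 clusters from 3000 to 3499 bp (84.3 to 91.4%) and 94.2% in the 223 of 3500 to 3999 bp (90.2 to 96.9%), and all 99 clusters of 5000 bp or more were found in both. When at least 50% of the broad cluster had to be covered in each replicate, 83.3% remained.

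The 21 broad clusters without support from both mostly had low scores. Replicate 2 alone had 16 of them, with a median log2 score of 0.35 and a highest of 0.57. Replicate 1 alone had 2, both on 3R and with 0.25 and 0.27. Only 3 lay in neither list (0.589%), against 33.5% of shorter clusters and 31.3% of all arm clusters. The share of shorter clusters came mostly from those under 2000 bp, as 1.92% were in neither list between 2000 and 2499 bp, 2.57% between 2500 and 2999 bp and 1.45% between 3000 and 3499 bp. Under 1500 bp, 86.8% were in neither. The 3 broad clusters in neither list also had low combined log2 scores, at 0.28 for 7518428 to 7522915 of 2R (4488 bp), 0.41 for 6553177 to 6557549 of X (4373 bp) and 0.31 for 6471512 to 6475620 of 2L (4109 bp), and each was longer than the median broad cluster. The 2R cluster lay 109 bp from another broad cluster, at 7513057 to 7518318, which both replicates had.

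The replicates filled the middle of broad clusters more than their ends, as they also did in shorter clusters. The median share of a broad cluster that was covered was 83.7% by replicate 1 and 94.4% by replicate 2. Along the cluster, cover was highest near the middle, at 88.0% in replicate 1 and 94.3% in replicate 2. In the outermost 5% at the left end those shares were 48.1% and 63.7%, and at the right end 48.9% and 66.0%. In shorter clusters cover rose from 25.5% at the left end to 51.5% near the middle in replicate 1, and from 37.2% to 58.5% in replicate 2. The combined call reached past the first and last replicate cluster by a median of 101 and 105 bp in replicate 1 and by 49 and 40 bp in replicate 2. In base pairs, 70.8% of the broad sequence was covered by both replicates, 14.7% by replicate 2 only, 5.02% by replicate 1 only and 9.52% by neither. For shorter clusters the share covered by neither was 29.1%, which includes clusters that met no replicate cluster at all. Where replicate 1 had a lone cluster, it covered a median of 83.0% of broad and 93.1% of shorter clusters. For a lone cluster of replicate 2 these medians were 94.6% and 96.0%, so broad clusters were not the better filled.

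**Figure D2:**
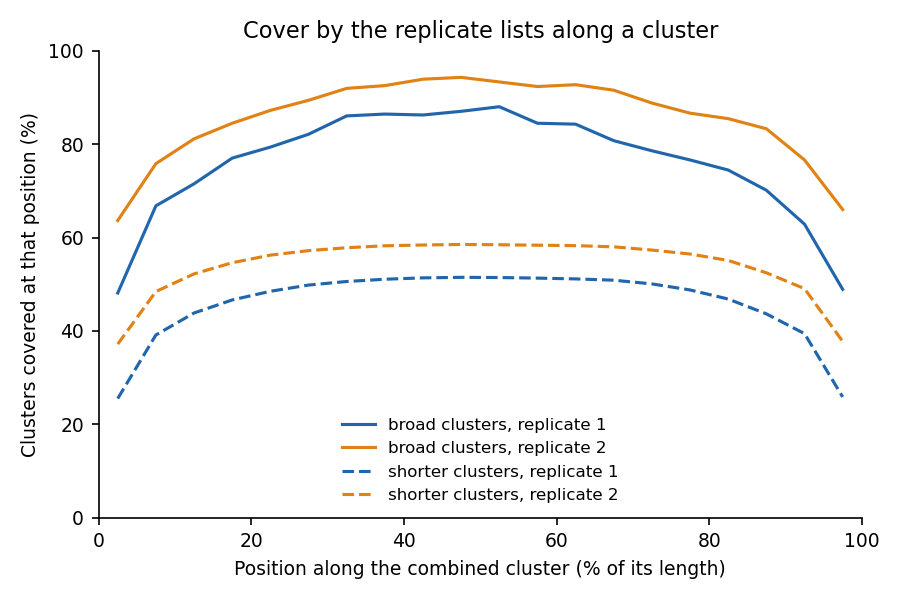
Share of combined clusters covered by each replicate list (y axis, %) at 20 positions along the cluster from its left to its right end (x axis, % of its length). For broad clusters, solid lines, cover runs from 48.1% at the left end to a highest value of 88.0% near the middle in replicate 1 and from 63.7% to 94.3% in replicate 2; dashed lines show shorter clusters.

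Many clusters that were broad in the combined list were not broad in the replicates. An overlapping cluster of at least 3500 bp was present in replicate 1 for 200 broad clusters (39.3%, exact 95% interval 35.0 to 43.7%) and in replicate 2 for 284 (55.8%, 51.4 to 60.2%). Both replicates had one for 160, which had a median length of 4459 bp and a median combined log2 score of 0.91. Neither had one for 185 (36.3%), which were shorter and weaker, with medians of 3874 bp and 0.60. Among these 185, 62 held 2 or more separate clusters in at least 1 list, 107 met a lone, shorter cluster in each list, and 17 were missing from a list, with 1 cluster counted as both divided and missing.

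Seen from the replicates, long clusters nearly all met a broad combined cluster, but fewer met a long cluster of the other replicate. Replicate 1 had 203 clusters of at least 3500 bp on the large arms (4.63% of its 4386) and replicate 2 had 296 (6.14% of its 4818). Of those, 201 and 284 overlapped a broad combined cluster. The combined list rests on the same ChIP samples, so this overlap is not an independent check. A cluster of at least 3500 bp in the other list was met by 161 of the 203 of replicate 1 (79.3%, exact 95% interval 73.1 to 84.7%) and by 160 of the 296 of replicate 2 (54.1%, 48.2 to 59.8%). Read depth is unknown for both samples, so whether the larger number in replicate 2 goes with depth was not tested.

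A minority of broad clusters was divided, that is, it shared at least 1 bp with each of 2 or more separate clusters of a replicate list. In replicate 1 this held for 77 broad clusters (15.1%, exact 95% interval 12.1 to 18.5%), of which 4 had 3 clusters, and in replicate 2 for 68 (13.4%, 10.5 to 16.6%), with 2 clusters each. Fewer held 2 or more clusters that lay wholly inside them, 64 in replicate 1 (12.6%, 9.82 to 15.8%) and 37 in replicate 2 (7.27%, 5.17 to 9.88%). For an overlap of 1 bp the shares over all arm clusters were 1.05% and 0.948%. The shortest replicate cluster had 1301 bp, which limits how many can lie wholly inside a shorter stretch. Per unit length the broad clusters did not hold more replicate clusters. They met 2.54 clusters of replicate 1 and 2.55 of replicate 2 per 10 kb, against 2.72 and 3.08 in shorter clusters. The values of shorter clusters pool unlike lengths, with 0.61 and 0.51 per 10 kb under 1500 bp and 4.07 and 4.37 from 2000 to 2499 bp. Of the shorter clusters, 48.2% met no cluster of replicate 1 and 41.3% none of replicate 2.

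Division was more common in longer clusters, which can hold more replicate clusters by construction. Among broad clusters of 3500 to 3999 bp, 2.69% were divided in replicate 1 and 5.83% in replicate 2, and among the 99 of at least 5000 bp 43.4% (33.5 to 53.8%) and 34.3% (25.1 to 44.6%) were. The rise was not steady, as replicate 2 divided 39.1% of the 64 clusters from 5000 to 5999 bp and 20% of the 20 from 6000 to 6999 bp. Divided clusters had a median length of 5117 bp in replicate 1 and 4993 bp in replicate 2, against 4001 and 4020 bp for those with a lone cluster. Their longest inner cluster had a median of 2317 bp in replicate 1 and 2430 bp in replicate 2, above the upper quartile of all arm clusters of those lists (2252 and 2302 bp), though each is the longer of several clusters. Undivided clusters were the rule nonetheless, as 378 of 509 (74.3%, 70.2 to 78.0%) met exactly 1 cluster in each list.

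Where both replicates divided a broad cluster, they mostly did so at the same place. This concerned 34 clusters, while 43 were divided in replicate 1 with a lone cluster in replicate 2, and 33 the other way round. In those 34, the midpoints of the nearest divisions of the 2 lists lay a median of 72.8 bp apart, and 31 of 34 were within 500 bp of each other. The remaining 3 differed by 512.5, 1843.5 and 1925 bp and all lay on X. Almost all divisions fell in the central 50% of the cluster, 77 of 81 in replicate 1 and 66 of 68 in replicate 2, which the minimum length of the replicate clusters itself favours.

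The gaps at these divisions were narrow. They had a median of 214 bp in replicate 1 (quartiles 93 and 427 bp) and 145 bp in replicate 2 (52.5 and 377 bp). The smallest was 1 bp in both lists, and 5 of the 68 gaps of replicate 2 were under 10 bp. With replicate clusters less than 200 bp apart joined, only 8.06% of broad clusters were divided in replicate 1 and 5.89% in replicate 2, and 11 in both. The inner clusters of 1 broad cluster often differed in strength, by a median of 0.24 log2 units in replicate 1 (n = 77) and 0.22 in replicate 2 (n = 68), with maxima of 1.28 and 1.61.

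The longest of all broad clusters was composite in both replicates. It lay on X at 7823504 to 7833263 (9760 bp) with a combined log2 score of 1.00. Replicate 1 showed 3 clusters of 2353, 2405 and 1765 bp with log2 scores of 0.82, 1.48 and 0.55, the middle one being the strongest. Replicate 2 showed 2 clusters, of 2767 bp with 1.21 and of 6581 bp with 1.15, only 1 bp apart. Replicate 1 covered 66.8% of the stretch and replicate 2 95.8%. The second longest lay on the same arm at 7949727 to 7958596 (8870 bp, 1.35). It was a lone cluster of 8789 bp in replicate 2 (1.44), the longest of that list, and 2 clusters of 4006 and 4596 bp in replicate 1 (0.94 and 1.5).

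In replicate 1 the longest on 3R, like the longest on X, had its strongest cluster in the middle. Replicate 2 had only 2 clusters at each of these places and so no middle one. The 3R cluster lay at 10107622 to 10115978 (8357 bp, 1.10), and replicate 1 had clusters of 2566, 2620 and 1970 bp with 0.69, 1.45 and 0.45. Replicate 2 joined the first 2 of them into 6251 bp with 1.38 and had a further 2096 bp with 0.64, and the last division fell at nearly the same base in both. On 2R, a cluster at 3023576 to 3030653 (7078 bp, 0.73) also held 3 clusters in replicate 1, of 2302, 2139 and 2044 bp with 0.68, 0.86 and 0.64, and 2 in replicate 2 (0.76 and 0.90). Here the 3 stretches were alike in length and in score.

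Other long clusters were unbroken. The longest on 3L, at 9684633 to 9692666 (8034 bp, 0.88), was a lone cluster of 7864 bp in replicate 1 (0.79) and of 7948 bp in replicate 2 (0.96). So was the cluster on 2R at 4551898 to 4559093 (7196 bp, 0.91), with 7148 bp (0.83) and 7130 bp (0.98). Both lists covered over 97% of each of these, and no log2 score of either reached 1. The other 2R cluster among the 10 longest, at 6440746 to 6448349 (7604 bp, 0.73) and the longest on that arm, was a lone cluster of 7521 bp in replicate 2 and 2 clusters of 4294 and 1959 bp in replicate 1, with log2 scores of 0.83, 0.77 and 0.43.

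**Figure D3:**
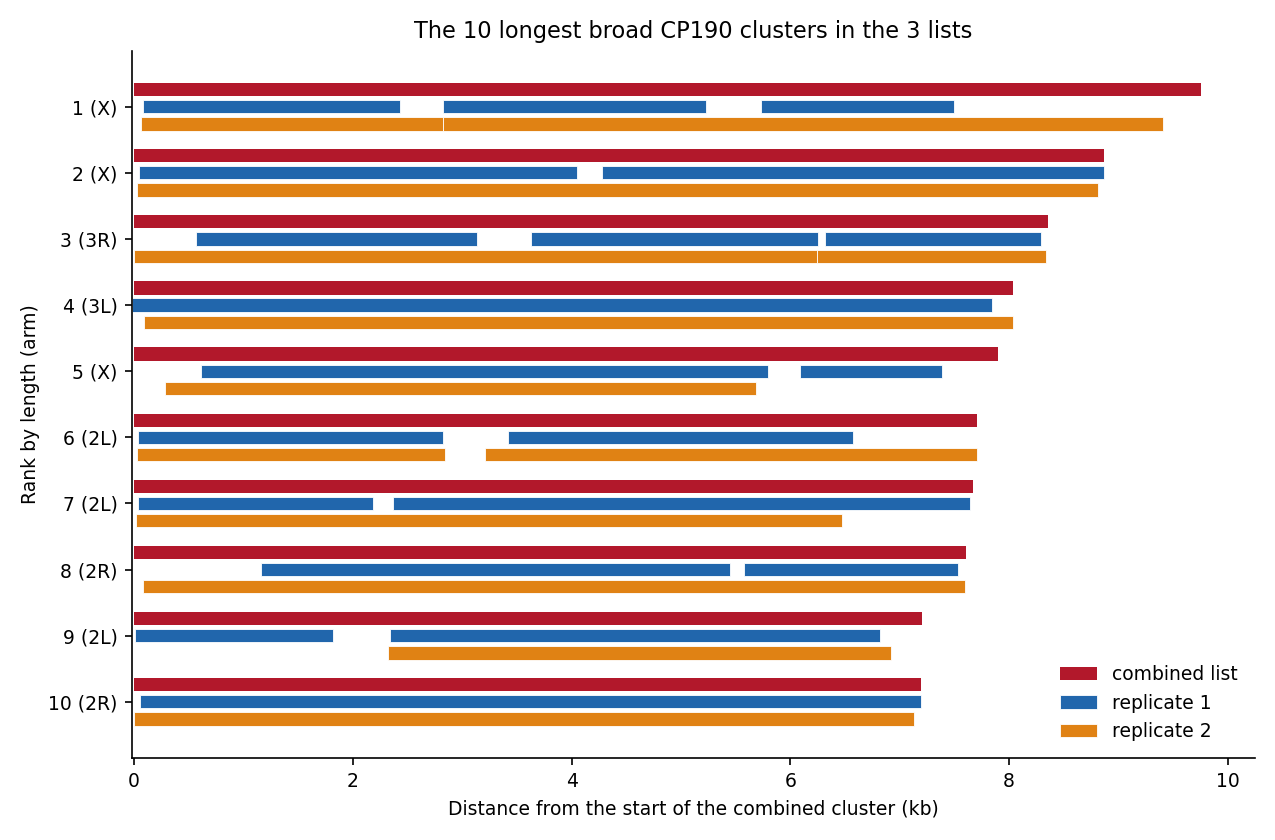
The 10 longest broad clusters, 1 per row with its arm, drawn to scale from the start of the combined cluster (x axis, kb): red, combined list; blue, replicate 1; orange, replicate 2. The cluster ranked first shows 3 clusters in replicate 1 and 2 in replicate 2 with a 1 bp gap, while those ranked 4 and 10 are unbroken in both replicates.

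On 2L, 3 clusters were also among the 10 longest, and each had its own make-up. The one at 19570910 to 19578616 (7707 bp, 0.91), the longest on the arm, was divided in both lists at places 96 bp apart. Its 2 stretches had log2 scores of 0.78 and 1.12 in replicate 1 and 0.97 and 1.05 in replicate 2. The one at 245659 to 253328 (7670 bp, 0.77) was divided in replicate 1 (0.82 and 0.68) and a lone cluster of 6456 bp in replicate 2 (0.92). At 5976772 to 5983980 (7209 bp, 1.13) a strong cluster was present in both (4485 bp with 1.53 and 4608 bp with 1.41), and a weak one of 1807 bp with 0.45 only in replicate 1.

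The last of the 10 longest to describe lay on X at 19530210 to 19538112 (7903 bp, 0.90). Replicate 1 had a cluster of 5185 bp with 1.11 and another of 1305 bp with 0.58, and replicate 2 had only the first stretch, as 5404 bp with 1.04. A much shorter stretch, on 3L at 11111014 to 11115172 (4159 bp, 0.38), met as many replicate clusters as the longest. Replicate 1 had 3 there, but the rightmost, of 3176 bp with a log2 score of 0.99, shared only its edge with the stretch and lay mainly beyond it. The other 2 had 0.34 and 0.49, and replicate 2 had 0.32 and 0.49 at the same places.

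Enrichment ranked broad clusters much alike in the replicates. Over the 488 broad clusters found in both, the highest overlapping log2 score had a Spearman correlation of 0.86 and a Pearson correlation of 0.90 between replicates, across clusters that share libraries, and the values for 3160 shorter clusters were 0.80 and 0.90. The length of the longest overlapping cluster was less alike, with a Spearman correlation of 0.48 in broad and 0.69 in shorter clusters. Replicate 2 had the higher log2 score for 378 of the 488 broad clusters (77.5%, exact 95% interval 73.5 to 81.1%) and for 70.5% of shorter ones (68.9 to 72.1%). Where each list had a lone cluster, replicate 2 exceeded replicate 1 by 0.12 ± 0.16 (SD over 378 broad clusters), against 0.09 ± 0.17 over 3154 shorter ones. The lists were scored separately, so the offset gives no difference in binding.

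**Figure D4:**
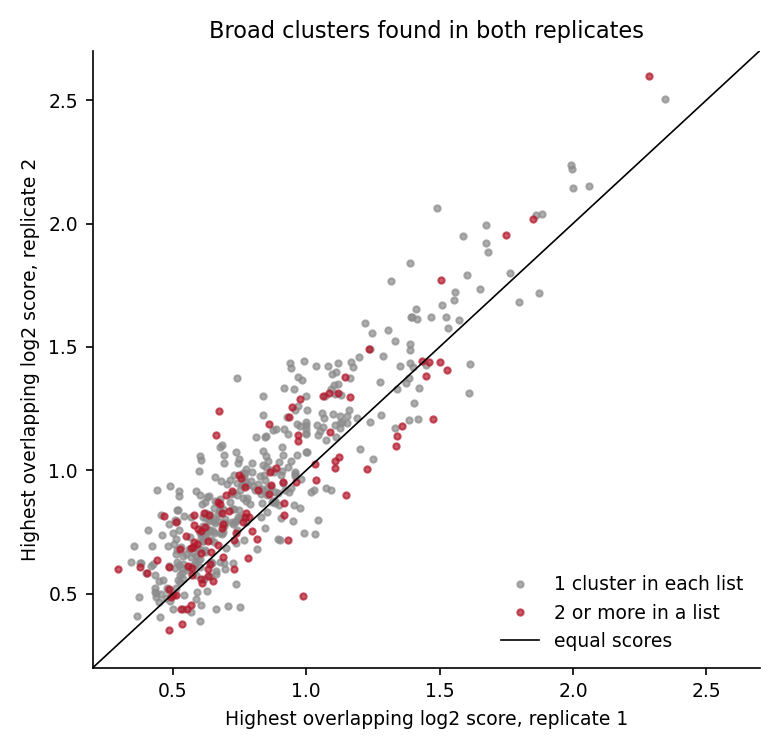
Highest overlapping log2 score in replicate 1 (x axis) and replicate 2 (y axis) for the 488 broad clusters found in both; grey, 1 cluster in each list; red, 2 or more in at least 1 list; line, equal scores. The scores of the 2 replicates have a Spearman correlation of 0.86, and 378 of the 488 points lie above the line.

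Divided clusters were not stronger than undivided ones. The median combined log2 score was 0.73 in broad clusters divided in replicate 1 and 0.75 in those with a lone cluster there. For replicate 2 the medians were 0.60 and 0.76. In the 19 broad clusters that replicate 1 lacked, the median was 0.35.

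Broad clusters were spread over all 5 large arms in rough proportion to the shorter ones. There were 82 on 2L, 97 on 2R, 95 on 3L, 123 on 3R and 112 on X. They made up 6.19% of the clusters of 2L (exact 95% interval 4.95 to 7.62%), 6.49% on 2R, 6.41% on 3L, 6.58% on 3R and 7.32% on X (6.06 to 8.74%), and these intervals overlap. By length of the arm the density was lowest on 2L, at 3.56 per Mb, and highest on X, at 4.99 per Mb. The replicate lists ordered the arms otherwise. In replicate 1 the density of clusters of at least 3500 bp was highest on 3R, at 2.19 per Mb, against 1.78 on X. In replicate 2 the densities of 3R and X were nearly equal, at 2.69 and 2.68 per Mb.

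Arms differed a little in the make-up of their broad clusters. On X 20.5% were divided in each replicate and the median length was 4238.5 bp, while on 3R 8.94% were divided in replicate 1 and 11.4% in replicate 2, with a median of 4001 bp. The clusters of 3R had the highest median log2 score, 0.82, against 0.69 on 2L and on 3L and 0.75 on X. Among shorter clusters it was X that had the highest median, at 0.45, and 3R the lowest, at 0.38.

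At the end of the arm sequence that faces the centromere, broad and shorter clusters were both scarce on 2L, 2R and 3L, and thinner on X. The 2 Mb of arm sequence at this end held 1 broad cluster each on 2L, 2R and 3L, out of 57, 44 and 50 clusters of any length there. On 3R the same stretch held 9 of 129 and on X 5 of 79. In broad clusters per Mb that is 0.50 on 2L, 2R and 3L, 4.50 on 3R and 2.50 on X, against 3.86, 5.01, 4.17, 4.40 and 5.24 in the rest of these arms. Shorter clusters were also thinner in the ends of 2L, 2R and 3L, at 28, 21.5 and 24.5 per Mb, against 56.5, 70.7 and 59.3 per Mb in the rest. They had 60 per Mb in that of 3R and 37 in that of X, against 62.8 and 65.9 in the rest. Over all 5 arms, 3.34% of broad clusters (exact 95% interval 1.96 to 5.29%) and 4.76% of shorter ones (4.27 to 5.27%) lay in these ends, so the intervals overlap. The mappable share of these ends was not analysed here.

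**Figure D5:**
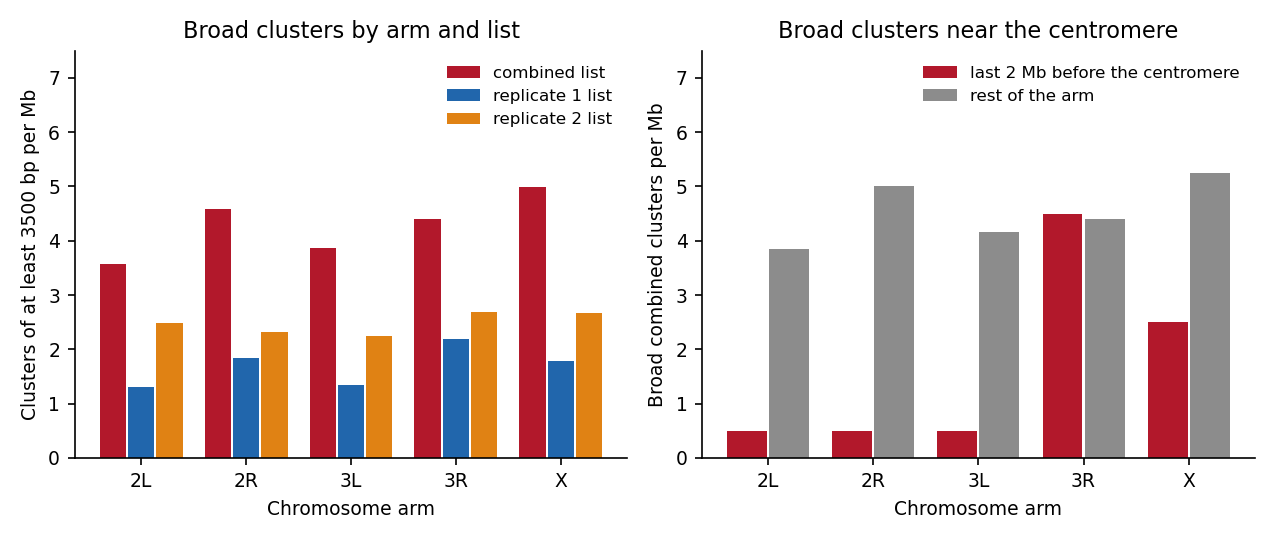
Left, clusters of at least 3500 bp per Mb of each arm in the combined list (red), replicate 1 (blue) and replicate 2 (orange). Right, broad combined clusters per Mb in the 2 Mb at the centromere-facing end of the arm sequence (red) and in the rest of the arm (grey); the ends of 2L, 2R and 3L have 0.50 per Mb and that of 3R has 4.50.

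Broad clusters were present along most of each arm. Over 117 full windows of 1 Mb the median was 4 broad clusters, and 4 windows had none. The richest was the tip of 2L, from 1 to 1000000, with 13 broad and 56 shorter clusters. It also had 6 clusters of at least 3500 bp in replicate 1 and 10 in replicate 2, and all 13 broad clusters were found in both. Next came 7000001 to 8000000 on X, with 11 broad and 43 shorter clusters, 6 in replicate 1 and 8 in replicate 2, among them the 2 longest of all. The window from 2000001 on 2L and those from 1000001 and 19000001 on X had 10 each. Across windows the number of broad clusters had a Spearman correlation of 0.34 with that of shorter ones, so windows rich in clusters were not always rich in broad ones.

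Broad clusters more often had close neighbours on both sides than shorter ones did, while the intervals of the shares with at least 1 close neighbour overlapped. Another combined cluster lay within 2 kb, edge to edge, for 201 of them (39.5%, exact 95% interval 35.2 to 43.9%), against 35.2% of shorter clusters (34.1 to 36.3%) and 35.4% of all arm clusters, so these intervals overlap. The value depended on the list, at 21.7% of the 203 clusters of at least 3500 bp in replicate 1, that is, without replicate 2, 31.1% of the 296 in replicate 2, and 22.1% among combined clusters above the median score. The median gap to the nearest cluster was 2870 bp for broad and 3383 bp for shorter clusters. Within 10 kb on each side, a median of 15.5% of the sequence around broad clusters and 13.7% around shorter ones was itself clustered. A neighbour within 2 kb on the left and also on the right was present for 38 broad clusters (7.47%, 5.34 to 10.1%) against 4.09% of the shorter ones (3.64 to 4.57%).

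Some neighbours were themselves broad. Successive broad clusters were a median of 148926 bp apart, but 33 pairs were direct neighbours and 13 lay within 2 kb. The closest pair was on 2R, at 8473526 to 8478324 and 8478379 to 8482113, 54 bp apart, with log2 scores of 1.03 and 1.02, and each was a separate cluster in both replicates. The next pair, 109 bp apart on 2R, is the one named above whose second member neither replicate had. Another pair, on X at 7598287 to 7602269 and 7602502 to 7607685, was 232 bp apart with 0.82 and 1.15. In all, 28 broad clusters (5.50%) and 4.85% of shorter ones had a neighbour of any length within 200 bp, a gap no wider than many of those inside divided clusters.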

How the data were processed

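The submitters' processing notes name the aligner Bowtie 0.12.7. The authors deposited 1 list of enriched regions per ChIP replicate and 1 combined list, on FlyBase release 5 per the file headers. For the peak caller, its thresholds and the making of the combined list, the sources used here give nothing. The score deposited by the authors is treated as log2: base 2 turned 99.8% of the values of each replicate list and 87.0% of the combined list into ratios of whole numbers, taken relative to the commonest score of the list (denominator at most 2000, relative tolerance 1e-12), and bases e and 10 at most 0.51%. Read depth is unknown, so no score has an interval.

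Python 3.11.15, NumPy 2.4.6, pandas 2.3.3, SciPy 1.17.1 and matplotlib 3.10.9 were used. Overlap means at least 1 bp, gaps run edge to edge, and the counting was tested on simulated data. Clusters named are the 10 longest, the 5 highest-scoring, the 5 with most replicate clusters, the longest per arm, those in neither replicate, those next to the minimum and the 3 closest broad pairs. Members and choices were set with earlier results of these data known. Alternatives changed the minimum, merged neighbours under 200 bp apart, kept only scores above the median, asked for 50% overlap, used 1 replicate list or added the other chromosomes and scaffolds. No reference of release 5 was used, so no gene or DNA sequence is given.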

Additional observations from a re-analysis of the deposited data

How the results depend on the processing

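Over 15 results and 87 alternative values, 61 stayed within their margin and 26 moved. The margin was 1.5-fold for numbers, the 95% interval for shares and the SD between replicates otherwise. A turn of direction was defined only for the score difference between broad and shorter clusters, and 0 of its values turned. The number of broad clusters was 855 with a minimum of 3000 bp, 286 with 4000 bp and 203 to 296 with a replicate left out, that is, in the other replicate's own list. The share found in both was 92.7% at 3000 bp, 99.1% above the median score and 83.3% with 50% covered. The share in neither was 0% above the median score and 3.73% when 50% had to be covered. Division in replicate 1 was 9.36% at 3000 bp, 24.8% at 4000 bp, 22.1% with combined clusters under 200 bp apart merged and 8.06% with replicate clusters merged. In replicate 2 it was 8.30%, 19.2%, 24.2% and 5.89%. Clusters divided in both fell to 11 after merging, an alternative chosen after seeing the data. The score difference between broad and shorter clusters was 0.29 after merging, 0.17 above the median score, and 0.27 to 0.32 with a replicate left out. A neighbour within 2 kb was present for 35.2% after merging, 22.1% above the median score and 21.7 to 31.1% with a replicate left out. Shorter or filtered lists hold fewer neighbours by construction, and for the other moved values the cause was not tested. The share on 3R was 25.3 to 30.0% with a replicate left out. No paired analysis was possible because each ChIP replicate is 1 list and the inputs have no list of their own.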

Other observations

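Outside the large arms, 3 of 259 combined clusters reached 3500 bp (1.16%, exact 95% interval 0.240 to 3.35%). One on chromosome 4, at 433662 to 438224 (4563 bp), had a log2 score of 1.45 and was found in both replicates, with 1.47 and 1.66. One on 3RHet, at 1522869 to 1526894 (4026 bp), had 1.53 and was also found in both (1.56 and 1.52). The last, on U at 5289585 to 5294747 (5163 bp), had 0.18 and was found in replicate 1 alone (0.29). The clusters of chromosome 4 and 3RHet thus had scores above the upper quartile of the broad clusters of the large arms, and that on U lay below their lowest value of 0.25.

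Merging all combined clusters less than 200 bp apart gave 620 broad clusters on the large arms. Gaps this narrow made up 192 of the 7696 gaps of the combined list, 63 of 4381 in replicate 1 and 90 of 4813 in replicate 2.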
